A study of Mus musculus with 6 samples.

Results

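Matrix glycoproteins, elastic fibre genes and proteoglycans were examined in fibroblasts of the mouse heart, the cells that make most of its connective tissue, after loss of Acta2, which encodes α-smooth muscle actin. The 57 genes were taken by symbol from the 25746 genes of the expression table, and all 57 were found there. They fall into 7 classes: matricellular proteins, adhesive and other glycoproteins, elastic fibre genes, laminins and nidogens, small leucine-rich proteoglycans, large proteoglycans with a link protein, and hyaluronan synthases. RNA was sequenced from 2 KO and 2 WT samples. Open chromatin was mapped with ATAC-seq, in which a transposase cuts accessible DNA, in 1 sample of each genotype. In the protocol of the labels, the KO fibroblasts came from mice with floxed Acta2 alleles (Acta2 fl/fl) and received Cre from an adenovirus, followed by TGFβ for 2 days. The WT fibroblasts in it came from WT mice and received the same virus and the same 2 days of TGFβ, so both genotypes carried Cre virus and TGFβ. The labels of every sample also describe mice with an inducible Cre (MerCreMer) that received tamoxifen (75 mg per kg daily, for 5 days) from 6 weeks of age. Those mice had their coronary artery ligated at 9 weeks of age and were given tamoxifen again from 1 day before to 5 days after the infarction. For the RNA samples, fibroblasts sorted by a Tcf21 lineage reporter are described as well. The labels do not say which of these descriptions each library follows, how many animals were pooled, or which part of Acta2 was removed. Nothing in them says that samples of a genotype came from separate animals or cultures, so the p-values here measure only how far these samples vary, and that variation may be technical.

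The extracellular matrix that fibroblasts lay down is more than collagen. Matricellular proteins such as periostin, tenascins and thrombospondins bind cells and growth factors rather than bear load, while fibronectin and its partners tie cells to fibres. Elastic fibres are built from elastin on a scaffold of fibrillin microfibrils, with fibulins and microfibril-associated proteins helping their assembly, and laminins and nidogens form basement membranes. Small leucine-rich proteoglycans sit on collagen fibrils and govern their width and spacing, and several of them also bind TGFβ. Large proteoglycans such as versican bind hyaluronan, a long sugar chain made by hyaluronan synthases. After a heart attack many of these proteins are made by activated fibroblasts in the scar.

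Promoter sequences are shown for 7 of the genes, picked by hand, 5 whose RNA was lower in KO and 2 whose RNA was higher. Of these, Ogn, Aspn, Postn and Tnc come up again with the open chromatin. Each is the 200 bases before the start site in RefSeq, on the gene's own strand, in build GRCm38.p6. Prelp (chr1:133921402-133921601, minus strand), Ogn (chr13:49607815-49608014, plus strand) and Aspn (chr13:49544243-49544442, plus strand) are small leucine-rich proteoglycans. Thbs2 (chr17:14694263-14694462, minus strand) and Postn (chr3:54360907-54361106, plus strand) are matricellular genes. Mfap2 (chr4:141010224-141010423, plus strand) and Tnc (chr4:64047016-64047215, minus strand) are the pair with higher RNA in KO. Capitals mark matches to 5 motifs: the AP-1 motif TGANTCA, the TEAD motif GGAATG, the CArG box bound by serum response factor and the GC box GGGCGG, each searched on both strands, and the TATA box TATAAA, searched on the gene's strand.
Prelp: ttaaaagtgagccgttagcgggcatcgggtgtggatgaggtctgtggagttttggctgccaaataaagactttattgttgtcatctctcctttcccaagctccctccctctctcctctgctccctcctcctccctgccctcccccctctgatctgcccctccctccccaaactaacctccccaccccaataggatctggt
Ogn: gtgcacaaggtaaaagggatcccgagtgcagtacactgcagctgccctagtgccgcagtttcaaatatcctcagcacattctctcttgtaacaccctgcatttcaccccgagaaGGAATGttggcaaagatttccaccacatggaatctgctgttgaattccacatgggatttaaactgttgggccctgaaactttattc
Aspn: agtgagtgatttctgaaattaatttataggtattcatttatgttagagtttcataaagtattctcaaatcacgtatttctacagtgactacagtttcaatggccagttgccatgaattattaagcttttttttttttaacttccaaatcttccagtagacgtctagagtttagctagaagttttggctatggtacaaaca
Thbs2: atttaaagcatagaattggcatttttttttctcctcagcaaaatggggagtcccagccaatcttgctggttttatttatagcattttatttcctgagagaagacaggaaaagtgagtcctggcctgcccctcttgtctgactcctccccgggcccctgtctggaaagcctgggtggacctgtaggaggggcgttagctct
Postn: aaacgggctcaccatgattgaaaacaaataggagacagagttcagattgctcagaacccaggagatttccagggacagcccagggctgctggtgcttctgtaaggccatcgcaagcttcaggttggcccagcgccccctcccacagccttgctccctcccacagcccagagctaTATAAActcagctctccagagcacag
Mfap2: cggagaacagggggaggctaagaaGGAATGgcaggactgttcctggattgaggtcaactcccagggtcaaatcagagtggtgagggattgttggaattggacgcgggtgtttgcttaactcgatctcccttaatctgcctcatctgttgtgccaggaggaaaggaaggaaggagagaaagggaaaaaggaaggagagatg
Tnc: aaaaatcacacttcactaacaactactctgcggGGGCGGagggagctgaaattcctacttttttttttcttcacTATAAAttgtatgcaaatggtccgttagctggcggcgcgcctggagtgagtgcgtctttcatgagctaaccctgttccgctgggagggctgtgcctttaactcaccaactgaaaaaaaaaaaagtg
The capitals stand for a TEAD motif in Ogn (86 bases before the start) and Mfap2 (176 bases before it), for a TATA box in Postn (26 bases before it) and Tnc (126 bases before it), and for a GC box in Tnc (167 bases before it). In Prelp, Aspn and Thbs2 none of the 5 motifs was matched in this window.

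Estimated counts totalled 11370115 and 10864365 in the KO libraries and 8429166 and 9096811 in the WT libraries. Acta2, the targeted gene, had 261 ± 6.74 CPM (counts scaled to a common library total) in KO, while WT stood at 2193 ± 9.72 CPM (SD, n = 2 each), a log2 fold change of -3.07. All 11 cardiac fibroblast markers were expressed well enough to be tested, and together they summed to 3739 and 3674 CPM in KO libraries against 4298 and 4234 CPM in WT libraries. Of these markers 5 were lower and 2 higher in KO, a share of 45.5% and 18.2% against 17.4% and 18.3% over all tested genes. Tcf21 was lower, with 5.61 and 6.85 CPM in KO libraries against 10.9 and 11.1 CPM in WT libraries, and Gata4 was higher, with 29.2 and 28.6 CPM in KO libraries against 16.2 and 13.6 CPM in WT libraries, as was Thy1 (log2 fold change 0.30). Markers of other cells were low but not absent. The macrophage and leukocyte list summed to 180 and 183 CPM in KO libraries against 104 and 99.1 CPM in WT libraries, with 7 of 9 tested markers higher in KO, none lower in edgeR or DESeq2, also at an unadjusted p below 0.05, and Fcgr1 at 0 in all libraries. The endothelial list summed to 505 and 516 CPM in KO libraries against 403 and 379 CPM in WT libraries, with 9 of 11 tested markers higher and 1 lower. Most of this sum was Eng alone, with 356 and 353 CPM in KO libraries against 284 and 265 CPM in WT libraries. The shares higher were 77.8% of the macrophage and leukocyte markers and 81.8% of the endothelial markers, against 18.3% over all tested genes. DESeq2 called 5 macrophage and 4 endothelial markers higher, and edgeR with an assumed biological coefficient of variation (the spread between samples) of 0.2 called 2 macrophage and 3 endothelial markers higher. Pericyte and smooth muscle markers (3 lower and 3 higher of 7 tested) summed to 88.8 and 95.7 CPM in KO libraries against 60.6 and 62.3 CPM in WT libraries. Mcam, Myh11 and Lmod1 were the 3 higher, and Rgs5, Cspg4 and Steap4 the 3 lower, so the sum does not describe the whole list. Mesothelial markers (4 lower and 1 higher of 8 tested) summed to 313 and 302 CPM in KO libraries against 314 and 301 CPM in WT libraries. Of the cardiomyocyte markers 1 could be tested and was lower, and Nppa and Pln were at 0 in all libraries. In bulk RNA, fewer cells of a type and less RNA per cell cannot be told apart.

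Most of the matrix genes that changed were lower in KO. Of the 57 genes, 50 passed the filter on low counts; 27 of these were lower in KO (54%), 4 were higher (8%) and 19 did not pass the test (edgeR, adjusted p below 0.05). Over all 12192 tested genes the background shares were 17.4% lower and 18.3% higher. The median log2 fold change, KO over WT, was -0.24 over the 50 matrix genes and 0.0014 over all genes tested. The shifts were mostly modest: 12 of the genes were lower with a log2 fold change of at least 0.5 in size, against a background of 5.63%, and 2 were higher by as much, against 8.18%. DESeq2 called 24 genes lower and 4 higher (background 8.99% and 7.89%), and edgeR with an assumed biological coefficient of variation of 0.2, far above the fitted 0.0311, called 5 lower and 0 higher (background 1.44% and 1.83%, or 3.26% in either direction), with 3 higher at an unadjusted p below 0.05. At 2-fold or more, 5 genes remained, all lower: Mfap4, Fmod, Prelp, Mgp and Lum. The genotypes did not overlap, with both KO libraries below both WT libraries, for 30 of the 50 genes (background 32.7%), and with both above for 9 genes (background 34.3%). Together the 57 genes took 1.54% of the counts in each KO library and 1.82% and 1.81% in the WT libraries. Of the fibroblast markers above, the 3 collagen genes summed to less in KO (2385 and 2342 CPM in KO libraries against 2992 and 2941 CPM in WT libraries), whereas the other 8, a division made after the values were seen, summed to 1354 and 1332 CPM in KO libraries against 1306 and 1294 CPM in WT libraries. Most of this last sum was Vim alone, with 1022 and 998 CPM in KO libraries against 984 and 955 CPM in WT libraries. Vim did not pass the test (edgeR adjusted p = 0.114). The part of the fibroblast markers in these results was not tested.

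**Figure D1:**
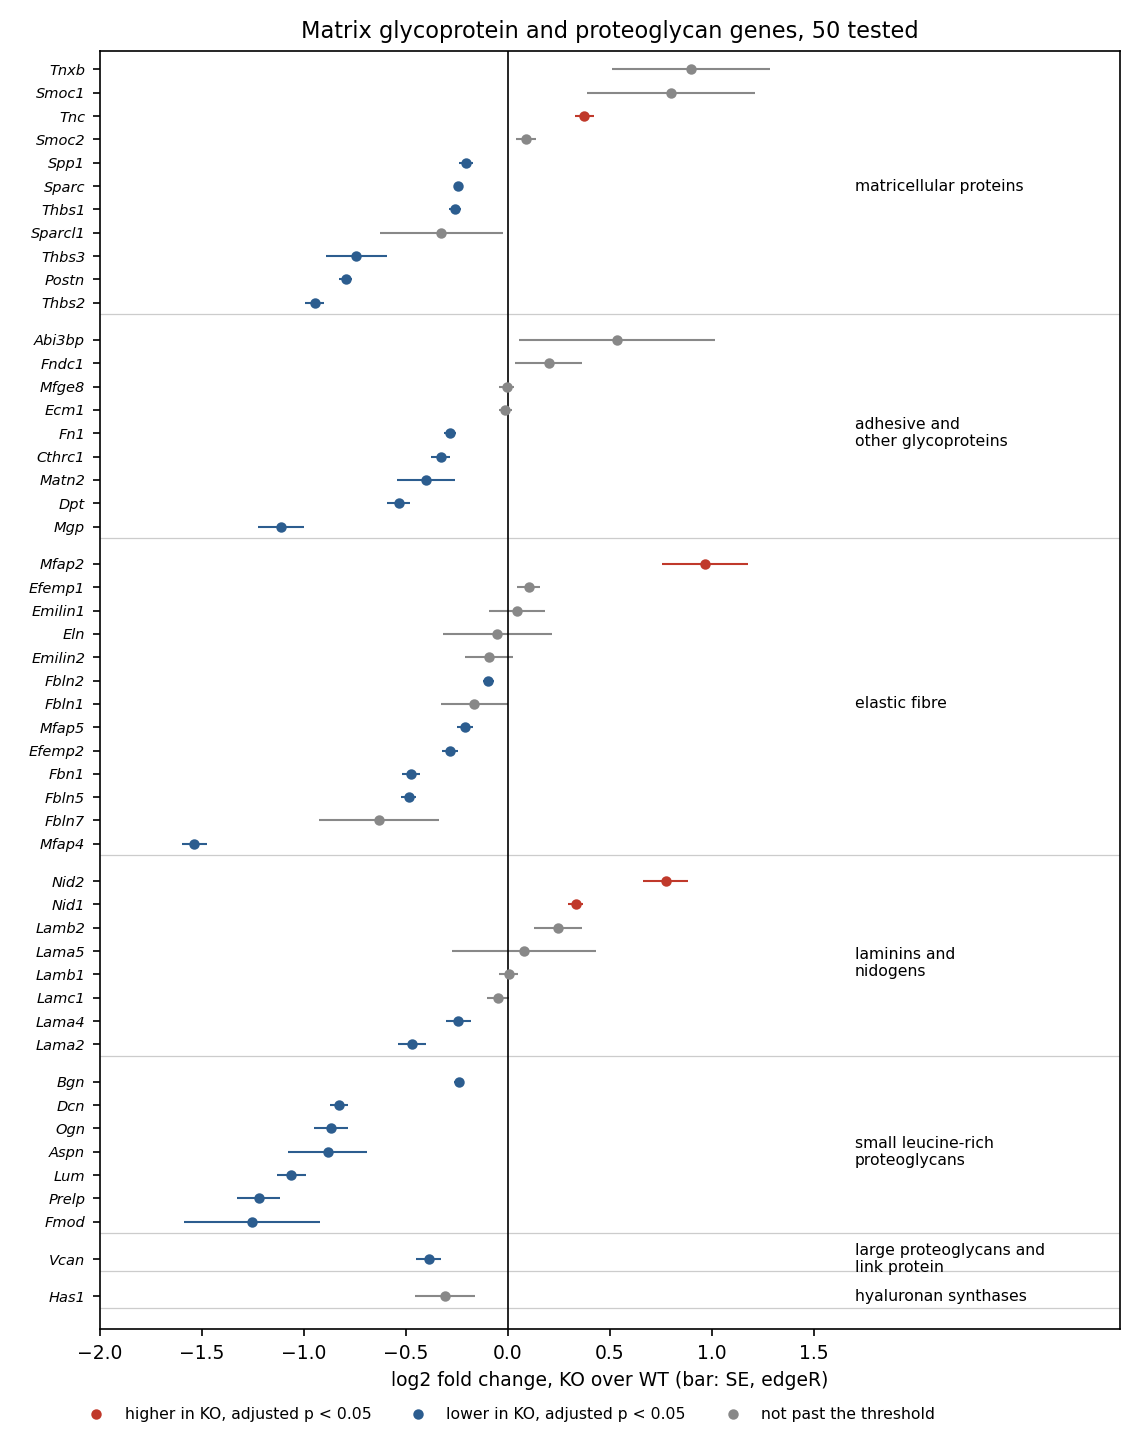
Log2 fold change (KO over WT, x axis) of the 50 tested genes by class (rows); points are edgeR estimates and bars their SE, red for higher in KO, blue for lower in KO and grey for not past the threshold (adjusted p 0.05). All 7 small leucine-rich proteoglycans lie left of 0, while the laminins and nidogens lie on both sides.

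The 7 small leucine-rich proteoglycans were lower in KO without exception in edgeR, with a median log2 fold change of -0.88. Decorin (Dcn), which binds collagen fibrils and TGFβ, had 351 and 367 CPM in KO libraries, against 677 and 598 CPM in WT libraries. Both KO libraries lay far below both WT libraries, and the log2 fold change was -0.83 ± 0.0430 (SE, edgeR adjusted p = 7.05e-15). Lumican (Lum), which sets fibril width in the cornea and skin, had 43.9 and 46.3 CPM in KO libraries against 100.3 and 88.3 CPM in WT libraries. The KO level was thus 47.8% of the WT level, with a log2 fold change of -1.06 ± 0.0711 (SE, edgeR adjusted p = 1.96e-12). Osteoglycin (Ogn) had 30.2 and 28.4 CPM in KO libraries against 52.6 and 54.3 CPM in WT libraries, which did not overlap (log2 fold change -0.87 ± 0.0832, SE, edgeR adjusted p = 2.94e-09). Prelp, which links collagen to basement membranes through heparan sulfate, had 17.1 and 15.8 CPM in KO libraries against 39.9 and 36.8 CPM in WT libraries. Its level in KO was 42.8% of that in WT (log2 fold change -1.22 ± 0.106, SE, edgeR adjusted p = 4.00e-10). Of the 100-base windows of its exons 7.09% are also found elsewhere in the transcripts, on either strand. An antisense gene overlaps 9.68% of its exon bases, which can be the same stretch, so its reads are less certain.

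The other 3 members of the family differed in how firmly they were measured. Biglycan (Bgn), the most abundant of the class per length, had 1254 and 1247 CPM in KO libraries against 1471 and 1478 CPM in WT libraries. Its spread was small and its change the smallest of the family, at -0.24 ± 0.0254 (SE, edgeR adjusted p = 2.09e-08). Asporin (Aspn), which binds TGFβ and collagen, had 7.27 and 6.48 CPM in KO libraries against 15.8 and 9.73 CPM in WT libraries. The WT libraries were far apart, and the call (log2 fold change -0.88 ± 0.194, SE, edgeR adjusted p = 0.000729) was lost without WT replicate 1, where the log2 fold change was -0.50 (adjusted p = 0.083). Fibromodulin (Fmod), a modulator of collagen cross-linking, had only 1.75 and 1.55 CPM in KO libraries against 3.24 and 4.65 CPM in WT libraries. It was called in edgeR (log2 fold change -1.25 ± 0.334, SE, adjusted p = 0.0043) but not in DESeq2 (adjusted p = 0.0766) or without WT replicate 2 (log2 fold change -0.97, adjusted p = 0.0993). DESeq2 called 6 of the 7 lower, and edgeR with an assumed coefficient of variation of 0.2 called 2, Lum and Prelp. Summed over the class, the proteoglycans held 1706 and 1712 CPM in KO libraries against 2360 and 2270 CPM in WT libraries.

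**Figure D2:**
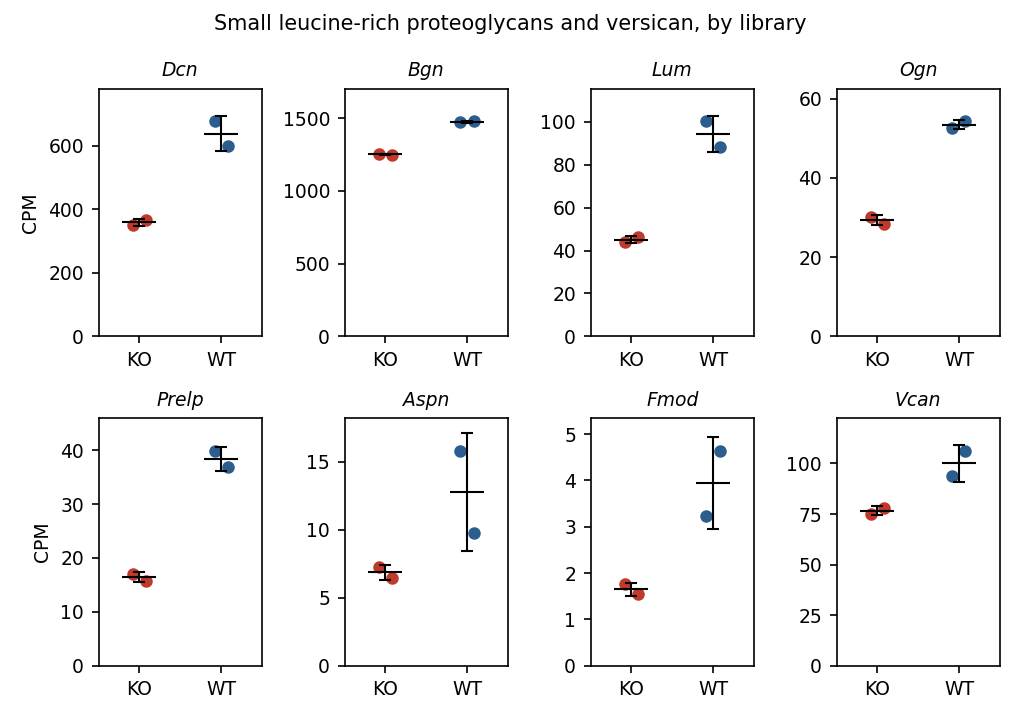
CPM (y axis, from 0) of the 7 small leucine-rich proteoglycans and versican in each RNA library; points are the 2 KO (red) and 2 WT (blue) libraries, lines the mean and bars the SD. KO points lie below WT points in every panel, and the WT libraries are furthest apart for Aspn and Fmod.

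Small leucine-rich proteoglycan genes lie next to each other in the genome, and 6 of the 7 sit in 3 such groups. On chromosome 10 (mm10), Dcn (chr10:97479609-97518143) and Lum (chr10:97565128-97572703) are followed by Kera and Epyc within 202.8 kb with no other gene of the table between. Kera, the keratocan gene, had 0 counts in all libraries. Epyc, the epiphycan gene, had 16 and 12 counts in KO and 35 and 35 counts in WT, a log2 fold change of -1.68 (edgeR adjusted p = 0.000396), so its KO libraries lay below its WT libraries as those of Dcn and Lum did. On chromosome 13, Aspn (chr13:49544443-49567565) and Ogn (chr13:49608046-49624501) were lower in KO, while Ecm2 at the edge of the group was not past the threshold (53 and 41 counts in KO, 33 and 24 counts in WT, log2 fold change 0.35, edgeR adjusted p = 0.348) and Omd was too low to test. In this group 1 other gene of the table overlaps the stretch of 119.7 kb. On chromosome 1, Prelp (chr1:133910304-133921414) and Fmod (chr1:134037254-134048277) were both lower and Optc, with at most 7 counts in a library, was not tested. Only a few other neighbours were looked at, too few to set against these groups. Thbs2 was lower at -0.95 while Smoc2, on the same 414.7 kb of chromosome 17 with no other gene of the table between, had a log2 fold change of 0.09 (edgeR adjusted p = 0.145). Spp1 was lower while Sparcl1, on the same 361.9 kb of chromosome 5, did not pass (edgeR adjusted p = 0.425). That stretch holds 5 other genes of the table. Mfge8 and its neighbour Hapln3 both did not pass. Vcan was lower beside Hapln1, which had at most 2 counts in a library and was not tested.

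**Figure D3:**
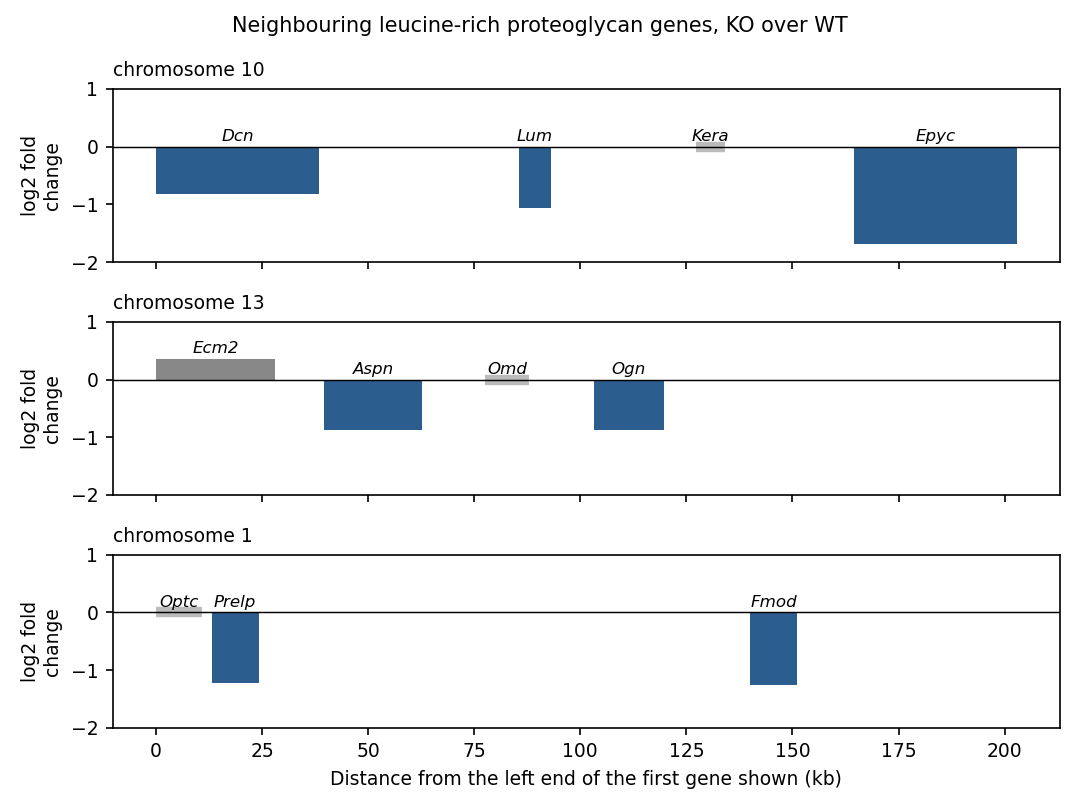
Log2 fold change (KO over WT, bar height on the y axis) of neighbouring leucine-rich proteoglycan genes on chromosomes 10, 13 and 1, with distance in kb from the left end of the first gene on the x axis; bar width is the gene's length, blue is lower in KO, dark grey not past the threshold and light grey at 0 not tested. Each group holds at least 2 genes that were lower, and Ecm2 is the only tested gene shown above 0.

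Of the 11 tested matricellular genes 6 were lower in KO (54.5%), 1 was higher (9.09%) and 4 did not pass, with a median log2 fold change of -0.24. Over all tested genes 17.4% were lower and 18.3% higher. Periostin (Postn), a product of activated fibroblasts that aids collagen cross-linking, had 537 and 561 CPM in KO libraries against 932 and 972 CPM in WT libraries. Its libraries fell into well separated pairs, with KO at 57.7% of WT (log2 fold change -0.79 ± 0.0325, SE, edgeR adjusted p = 2.34e-17). Thrombospondin 2 (Thbs2), which clears matrix proteases and limits vessel growth, had 133 and 132 CPM in KO libraries against 246 and 263 CPM in WT libraries. KO was 51.9% of WT (log2 fold change -0.95 ± 0.0476, SE, edgeR adjusted p = 3.25e-15). Thbs3, another thrombospondin, had 9.38 and 8.85 CPM in KO libraries against 15.9 and 14.6 CPM in WT libraries, again without overlap (log2 fold change -0.74 ± 0.151, SE, edgeR adjusted p = 0.000342). Over 6.59% of its exon bases Thbs3 overlaps Mtx1 on the opposite strand. Thbs1, an activator of latent TGFβ, changed less: 904 and 957 CPM in KO libraries against 1097 and 1130 CPM in WT libraries gave a log2 fold change of -0.26 ± 0.0302 (SE, edgeR adjusted p = 1.04e-07). Thbs4 and Comp, the other members of the thrombospondin family, were near 0, with 0 and 0 counts in KO and 0 and 2 counts in WT for Thbs4, and 1 and 0 counts in KO and 3 and 1 counts in WT for Comp.

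The tenascins and the SPARC family gave mixed results. Tenascin C (Tnc), made in healing wounds, had 230 and 234 CPM in KO libraries against 177 and 181 CPM in WT libraries. It was the only matricellular gene called higher (log2 fold change 0.38 ± 0.0449, SE, edgeR adjusted p = 1.57e-07). Tnxb, the tenascin X gene, was scarce and did not pass, with 2.63 and 2.56 CPM in KO libraries against 1.80 and 0.995 CPM in WT libraries (edgeR adjusted p = 0.0712). Sparc, a collagen-binding protein and the most abundant matrix gene of the 57 per length, had 5467 and 5339 CPM in KO libraries against 6468 and 6310 CPM in WT libraries. The KO libraries lay below both WT libraries (log2 fold change -0.24 ± 0.0184, SE, edgeR adjusted p = 2.86e-11). Sparcl1, Smoc1 and Smoc2, its relatives, did not pass the test. In Sparcl1 the genotypes overlapped, with 4.99 and 6.57 CPM in KO libraries against 11.3 and 3.43 CPM in WT libraries. Osteopontin (Spp1), a cytokine-like glycoprotein also made by macrophages, had 488 and 460 CPM in KO libraries against 553 and 540 CPM in WT libraries (log2 fold change -0.20 ± 0.0360, SE, edgeR adjusted p = 5.49e-05). Macrophage markers summed to more in KO and their part in this result was not tested; 18.8% of the exon bases of Spp1 are shared with a gene annotated on the same strand.

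Of the 9 tested adhesive and other glycoproteins 5 were lower in KO (55.6%), with a median log2 fold change of -0.28. None was higher in edgeR, DESeq2 or limma-voom, nor at an unadjusted p below 0.05. The edgeR shares over all tested genes were 17.4% lower and 18.3% higher. Matrix Gla protein (Mgp), an inhibitor of calcification, changed most, with 15.7 and 17.1 CPM in KO libraries against 38.0 and 32.9 CPM in WT libraries. Both KO libraries were under both WT libraries, at 46.2% of the WT mean (log2 fold change -1.11 ± 0.112, SE, edgeR adjusted p = 6.96e-09). Dermatopontin (Dpt), which binds decorin and promotes fibril formation, had 88.9 and 92.6 CPM in KO libraries against 137 and 127 CPM in WT libraries (log2 fold change -0.54 ± 0.0548, SE, edgeR adjusted p = 9.34e-09). Fibronectin (Fn1), the adhesive glycoprotein on which other matrix proteins are laid, had 645 and 652 CPM in KO libraries against 784 and 793 CPM in WT libraries. The pairs did not overlap, and KO was 82.2% of WT (log2 fold change -0.28 ± 0.0305, SE, edgeR adjusted p = 2.67e-08). Cthrc1, a marker of activated fibroblasts in scars, was at 79.6% of the WT level (log2 fold change -0.33 ± 0.0467, SE, edgeR adjusted p = 2.71e-06). Matn2 was also called (edgeR adjusted p = 0.0282), but not in DESeq2 and not when KO replicate 1, KO replicate 2 or WT replicate 2 was left out.

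Ecm1, the most abundant of the class per length, had 593 and 582 CPM in KO libraries against 596 and 588 CPM in WT libraries. Its genotypes overlapped, and with a log2 fold change of -0.01 ± 0.0325 (SE, edgeR adjusted p = 0.807) its sign turned when only library size was used for scaling and without KO replicate 2. Mfge8, a secreted bridge between integrins and dying cells, overlapped too, at 529 and 505 CPM in KO libraries against 503 and 535 CPM in WT libraries (edgeR adjusted p = 0.919). Fndc1 and Abi3bp did not pass, and Vtn, the vitronectin gene, had 4 and 2 counts in KO and 3 and 1 counts in WT and was not tested.

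Among the 13 tested elastic fibre genes 6 were lower (46.2%), 1 was higher (7.69%) and 6 did not pass, with a median log2 fold change of -0.16. All tested genes together had 17.4% lower and 18.3% higher. Mfap4, a microfibril-associated protein that binds elastin and collagen, changed most of all 50 tested matrix genes, with 45.7 and 44.5 CPM in KO libraries against 134 and 128 CPM in WT libraries. The KO level was 34.4% of the WT level (log2 fold change -1.54 ± 0.0607, SE, edgeR adjusted p = 1.24e-17). Mfap2, a component of fibrillin microfibrils, moved the other way at a low level, with 9.20 and 8.40 CPM in KO libraries against 5.28 and 3.76 CPM in WT libraries. Both KO libraries lay above both WT libraries (log2 fold change 0.97 ± 0.210, SE, edgeR adjusted p = 0.000667). Fibulin 5 (Fbln5), needed for elastic fibre assembly in mice, had 279 and 279 CPM in KO libraries against 387 and 395 CPM in WT libraries. That is 71.4% of the WT level (log2 fold change -0.49 ± 0.0384, SE, edgeR adjusted p = 5.98e-11). Fibrillin 1 (Fbn1), the main microfibril protein, was at 72.1% of WT (log2 fold change -0.47 ± 0.0437, SE, edgeR adjusted p = 1.41e-09). An antisense gene overlaps 20.1% of its exon bases, and 19.4% of its exon windows are found elsewhere in the transcripts, on either strand. The 2 shares can describe the same stretch, and its reads cannot be fully assigned.

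Further along the elastic fibre pathway, Efemp2 (fibulin 4), which brings lysyl oxidase to elastin, had 265 and 262 CPM in KO libraries against 325 and 317 CPM in WT libraries (log2 fold change -0.28 ± 0.0401, SE, edgeR adjusted p = 2.35e-06). Fibulin 2 (Fbln2), the most abundant elastic fibre gene per length, had 1186 and 1172 CPM in KO libraries against 1240 and 1279 CPM in WT libraries. Its change of -0.10 ± 0.0269 on the log2 scale (SE, edgeR adjusted p = 0.00674) was among the smallest called, and the call was lost without KO replicate 2 (adjusted p = 0.0584) and without WT replicate 2 (adjusted p = 0.0781). Elastin itself (Eln) was scarce in both genotypes, with 4.73 and 3.83 CPM in KO libraries against 5.52 and 3.43 CPM in WT libraries. Its genotypes overlapped (log2 fold change -0.05 ± 0.265, SE, edgeR adjusted p = 0.906). Mfap5, another microfibril gene, was at 86.5% of WT (log2 fold change -0.21, edgeR adjusted p = 0.000105). Fbln1, Fbln7, Efemp1, Emilin1 and Emilin2 did not pass the test, and Fbn2, with 2 and 13 counts in KO and 6 and 6 counts in WT, was not tested.

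Of the 8 tested laminins and nidogens, 2 were lower (25%), 2 were higher (25%) and 4 did not pass, with a median log2 fold change of 0.04. These shares of a small class lie not far from the 17.4% lower and 18.3% higher over all tested genes. Nidogen 1 (Nid1), which joins laminin to type IV collagen in basement membranes, had 491 and 523 CPM in KO libraries against 396 and 409 CPM in WT libraries. Both KO libraries were above both WT libraries (log2 fold change 0.33 ± 0.0376, SE, edgeR adjusted p = 5.62e-08). Nidogen 2 (Nid2), its relative, had 29.3 and 32.8 CPM in KO libraries against 17.9 and 18.4 CPM in WT libraries, so KO was 171% of WT (log2 fold change 0.77 ± 0.111, SE, edgeR adjusted p = 2.95e-06). Nid2 overlaps Rtraf on the opposite strand over 8.45% of its exon bases. Of its exon windows 6.54% are found elsewhere on either strand, which can be the same stretch. Lama2, the α chain of muscle laminin, had 60.2 and 65.4 CPM in KO libraries against 92.2 and 82.1 CPM in WT libraries (log2 fold change -0.47 ± 0.0677, SE, edgeR adjusted p = 3.17e-06). Lama4, an α chain of vessel and muscle laminin, was at 84.5% of WT (edgeR adjusted p = 0.0027) but was not called by DESeq2 (adjusted p = 0.0606). The shared chains Lamb1 and Lamc1, which had 189 and 99.3 CPM in KO libraries against 189 and 102 CPM in WT libraries on average, did not pass, nor did Lama5 and Lamb2. Endothelial cells also make nidogens, and endothelial markers summed to more in KO, as given above; their part in these results was not tested.

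**Figure D4:**
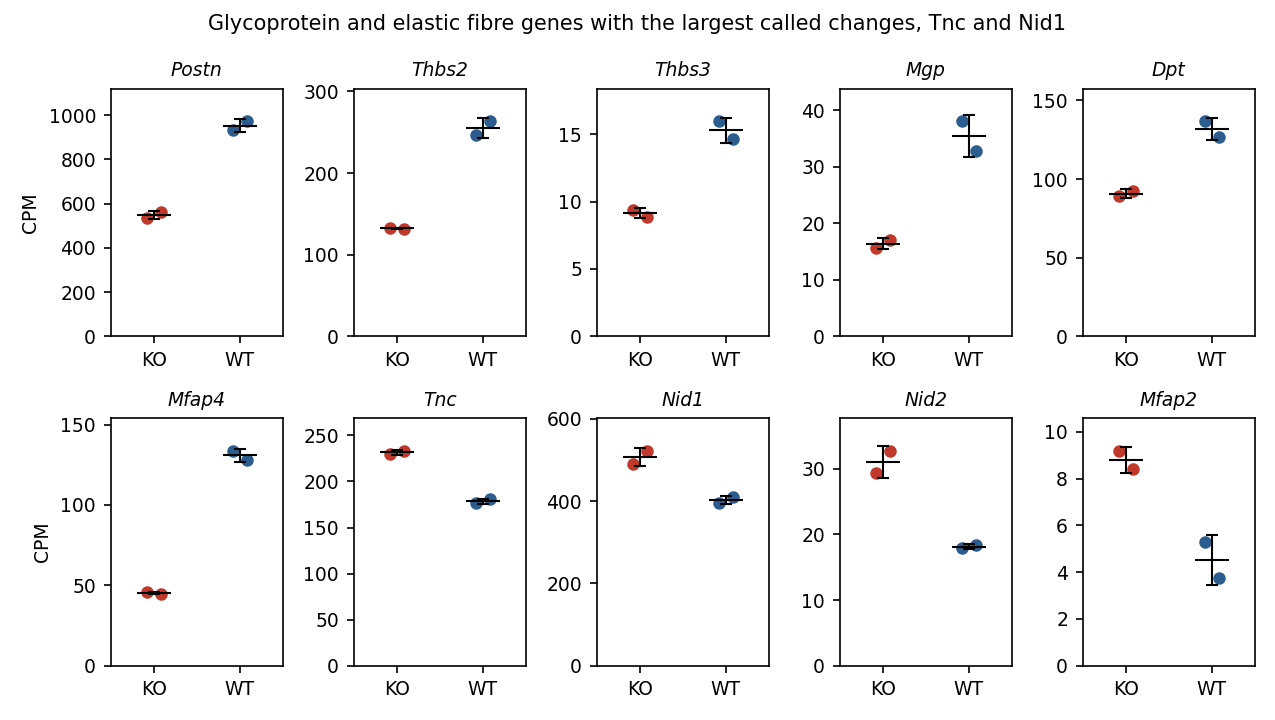
CPM (y axis, from 0) in each RNA library of the glycoprotein and elastic fibre genes called with a log2 fold change of at least 0.5 in size, with Tnc and Nid1; points are the 2 KO (red) and 2 WT (blue) libraries, lines the mean and bars the SD. KO lies below WT for Postn, Thbs2, Thbs3, Mgp, Dpt and Mfap4, and above WT for Tnc, Nid1, Nid2 and Mfap2.

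Versican (Vcan) was the only large proteoglycan abundant enough to test. This hyaluronan-binding proteoglycan of provisional matrix had 75.0 and 78.1 CPM in KO libraries against 93.7 and 106 CPM in WT libraries, without overlap (log2 fold change -0.39 ± 0.0628, SE, edgeR adjusted p = 1.78e-05). Aggrecan (Acan), the large proteoglycan of cartilage, had 1 and 0 counts in KO and 0 and 0 counts in WT, and Hapln1, which links such proteoglycans to hyaluronan, had 1 and 2 counts in KO and 2 and 0 counts in WT. Of the hyaluronan synthases, Has1 had 10.8 and 13.4 CPM in KO libraries against 14.8 and 15.2 CPM in WT libraries and did not pass (log2 fold change -0.31 ± 0.149, SE, edgeR adjusted p = 0.11), although it did without KO replicate 2 (log2 fold change -0.47, adjusted p = 0.0366). Has2 had 10 and 13 counts in KO and 7 and 9 counts in WT and was not tested.

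The size of the change did not simply track the level of the gene. On the scale of CPM per kb of exon, which allows genes to be compared, Sparc led with 1426 in KO and 1687 in WT, followed in WT by Spp1 (288 in KO, 332 in WT), Bgn (205 in KO, 242 in WT), Ecm1 (233 in KO, 235 in WT), Fbln2 (185 in KO, 198 in WT) and Thbs1 (153 in KO, 183 in WT). All of these had log2 fold changes between -0.26 and -0.01. Postn was at 63.1 CPM per kb in KO and 109 in WT, Dcn at 61.5 in KO and 109 in WT, and Mfap4 was at 23.5 CPM per kb in KO and 68.1 in WT. On this scale Bgn stood below Ecm1 in KO and above it in WT.

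**Figure D5:**
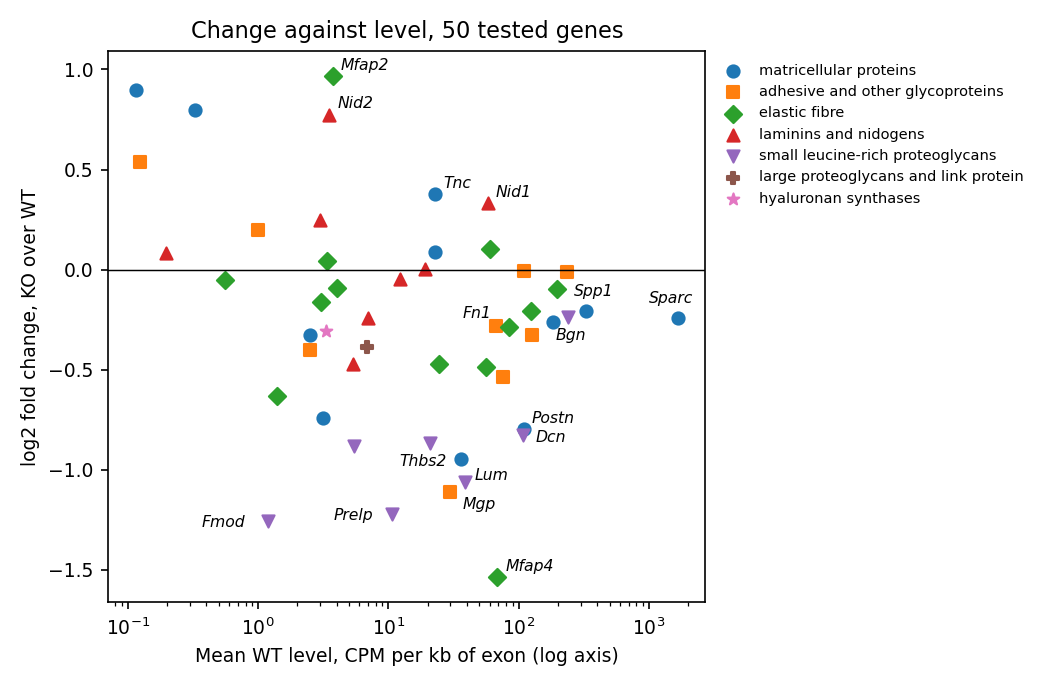
Log2 fold change (KO over WT, y axis) against mean level in WT (CPM per kb of exon, x axis, log scale) for the 50 tested genes, 1 symbol per gene and 1 colour and shape per class. Sparc, Spp1 and Bgn, the most abundant, lie between -0.24 and -0.20, and the lowest points are Mfap4, Fmod, Prelp, Mgp and Lum.

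Other genes of these pathways were counted from 6 lists chosen by function. Against 17.4% lower and 18.3% higher over all tested genes, 36 of 125 were lower in KO, 18 were higher and 71 did not pass, with a median log2 fold change of -0.05. Genes for hyaluronan precursors, breakdown and receptors had 10 lower (55.6%) and 1 higher (5.56%) of 18 tested and a median of -0.24. Among them Gfpt2, which opens the pathway to amino sugars, averaged 512 ± 16.5 CPM in KO against 742 ± 30.4 CPM in WT (mean and SD, n = 2 each; log2 fold change -0.54, edgeR adjusted p = 1.09e-12). Ugdh, which makes the glucuronic acid donor for hyaluronan and other sugar chains, averaged 520 ± 12.4 CPM in KO against 675 ± 8.76 CPM in WT (mean and SD, n = 2 each; log2 fold change -0.38, edgeR adjusted p = 4.44e-10). Ptx3 was lower by a log2 fold change of -0.26, and Cemip, which degrades hyaluronan, by -1.16. Genes that build and sulfate glycosaminoglycan chains split into 6 lower (15.8%) and 5 higher (13.2%) of 38 tested, both shares below those over all genes. Csgalnact1, which starts chondroitin chains, was lower (log2 fold change -0.69, edgeR adjusted p = 1.71e-07), as was the heparan sulfotransferase gene Ndst1 (-0.57, edgeR adjusted p = 5.02e-05), whereas Chst12 (0.30, edgeR adjusted p = 2.06e-05) and Hs3st3b1 (1.05, edgeR adjusted p = 3.12e-05), both sulfotransferase genes, were higher.

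Among 16 cell-surface and basement membrane proteoglycans and partners 7 were lower (43.8%) and 3 higher (18.8%), against 17.4% and 18.3% of all genes. The syndecan gene Sdc2 averaged 197 ± 4.50 CPM in KO against 274 ± 3.36 CPM in WT (mean and SD, n = 2 each; log2 fold change -0.47, edgeR adjusted p = 1.23e-09), and the glypican gene Gpc4 was also lower (log2 fold change -0.33, edgeR adjusted p = 3.85e-06). Perlecan (Hspg2), the heparan sulfate proteoglycan of basement membranes, was higher, as the nidogens were, and averaged 59.2 ± 3.17 CPM in KO against 34.6 ± 3.44 CPM in WT (mean and SD, n = 2 each; log2 fold change 0.78, edgeR adjusted p = 2.25e-08), and nephronectin (Npnt) had a log2 fold change of 0.99 (edgeR adjusted p = 0.000218). In the microfibril and elastic fibre assembly list 3 of 17 were lower (17.6%, near the 17.4% of all genes) and 1 was higher (5.88%, against 18.3%). Lysyl oxidase (Lox), which cross-links collagen and elastin, averaged 1324 ± 55.2 CPM in KO against 1669 ± 57.4 CPM in WT (mean and SD, n = 2 each; log2 fold change -0.33, edgeR adjusted p = 4.12e-10). Adamtsl3 (log2 fold change -1.37) and Ltbp2 (-0.39) were lower and Loxl4 was higher (0.40).

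Of 15 tested relatives of the 57 genes by family 4 were lower (26.7%) and 3 higher (20%), against 17.4% and 18.3% over all tested genes. The multimerin gene Mmrn2 (log2 fold change 1.21) and the netrin gene Ntn4 (1.88) were higher, and Epyc (-1.68) and Fstl1 (-0.11) were lower. Ntn4 had 71 and 72 counts in KO and 19 and 11 counts in WT. Mmrn2 is made by endothelial cells, whose markers moved in the same direction; their part in this result was not tested. Of 21 other matrix glycoproteins 6 were lower (28.6%) and 5 higher (23.8%), with Mxra8 (log2 fold change -0.68), Svep1 (-1.26) and Olfml3 (-0.56) lower and Crispld2 (1.17) higher.

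Open chromatin was compared at the start sites, with 1 ATAC-seq library per genotype and therefore without a test. The deposited lists hold 121748 peaks in KO and 123935 in WT. A peak within 1 kb of the start site was listed in both genotypes for 50 of the 57 genes, and for 44 of the 50 tested ones; over all tested genes with a start site the background share was 92.8%. Ogn had a peak in the KO list only (background 0.779%), and Lum, Tnxb and Acan had one in the WT list only (background 0.738%). With peaks of a fold of at least 5 only, 2 of the 57 genes had a peak in the KO list only (background 1.13%), Ogn and Thbs4. Acan alone had one in the WT list only (background 0.386%). The WT peaks of Lum (fold 4.93), Tnxb (4.52) and Thbs4 (4.52) fell below this threshold. The entries of these genes therefore depend on it, while those of Ogn and Acan stayed. Without the threshold, Fmod, Lama2 and Aspn had no peak within 1 kb in either list. At Ogn the KO list held 2 peaks within 1 kb of the start site and 3 overlapping the gene, which can be the same peaks. The WT list held 0 of either kind. No background share was counted for peaks over a gene. The KO peak listed by highest fold near the start site of Ogn (chr13:49607862-49608160) covered 153 bases of the promoter printed above, although the RNA of Ogn was lower in KO. Its fold enrichment over the library background, the caller's own value, was 5.53, in the 42.6th percentile of the KO list. The WT peak at Lum (chr10:97565318-97565682) lay inside the gene, and its fold of 4.93 was in the 40.3rd percentile of the WT list. Peaks of such height are near the middle of each list or under it, and a missing entry says only that no peak was called there.

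Peaks at other lower genes were present in both lists. Dcn had a peak in the 70.0th percentile of the KO list and the 67.6th of the WT list, and Mfap4 in the 79.8th of the KO list and the 73.7th of the WT list. At Postn the peak over the start site was 627 bases wide in KO, with its summit at -185 bases, and 3877 bases wide in WT, with its summit at -2384 bases, outside the 1 kb window, so the heights of these peaks describe different sites. Among the higher genes, Tnc was in the 86.7th percentile of the KO list and the 79.7th of the WT list, and Nid2 in the 97.7th of both. Thbs1 was covered along its whole length by 1 peak in each genotype, of 20695 bases in KO and 20874 bases in WT. At Fbln2 a KO peak spanned 20892 bases. The WT list held 2 peaks within 1 kb of the start site there. The one with the higher fold was 2830 bases wide (chr6:91209333-91212162) and ended before the start site at 91212455. The widths in KO and WT therefore do not describe the same stretch.

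The RefSeq promoter table held windows for 37 of the 57 genes. Their median GC content was 56%, against 53% over all 32851 windows of the table. A GC box was found in 17 of the 37 (31% of all windows), a TEAD motif in 6 (10.1% of all windows), a TATA box in 4 (6.27% of all windows), an AP-1 motif in 3 (5.48% of all windows) and a CArG box in 1, Lama2 (1.18% of all windows). In the 17 windows of genes that were lower in KO, 7 had a GC box, and 1 each had a TEAD motif, a TATA box and a CArG box, while none had an AP-1 motif. In the 5 windows of small leucine-rich proteoglycans the GC content ran between 31% in Aspn and 67% in Bgn. A match of letters is a description and not evidence of binding.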

How the data were processed

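Samples were grouped by the genotype in their titles: 2 KO and 2 WT for RNA-seq, 1 of each for ATAC-seq. The authors deposited estimated counts per gene in a single table. Per the labels' protocols, 150 bp read pairs went through Trim Galore 0.6 and FastQC and were mapped to mm10 by STAR 2.5.3a. How genes were counted is not given in the sources used here; no stranded kit is named, so reads of antisense genes cannot be told apart. TPM is mentioned in the protocols as well, yet column sums ran between 8429166 and 11370115, and 10.8 to 12.2% of values were not whole. Whole counts had been assumed when planning; the estimated counts were rounded and the planned test was used. For ATAC-seq, per the labels' protocols, Bowtie2 2.3 alignments were cleared of duplicates and mitochondrial reads before MACS2 called peaks per sample. The deposited peak lists give a score, a fold enrichment ratio and −log10 p-values and q-values for each peak.

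Testing used edgeR 4.0.16 under R 4.3.3, with filterByExpr (minimum count 10), TMM scaling and a quasi-likelihood F test of genotype; p-values were adjusted by Benjamini-Hochberg across 12192 genes, with a threshold of 0.05. SE was taken as the size of the log2 fold change over the root of F, and CPM as counts over TMM-scaled totals. The fit had 2 residual degrees of freedom and a common biological coefficient of variation (BCV) of 0.0311. Alternatives were DESeq2 1.42.0, limma-voom (limma 3.58.1), other scalings and filters, an assumed BCV of 0.1 or 0.2, each replicate left out and a replicate block. Replicates differed by more than sampling noise, with a chi-square over its degrees of freedom of 1.95 in KO, 1.75 in WT and 16.28 to 16.95 between genotypes, so all 4 were kept. On simulated counts for the KO against WT comparison (12025 genes tested, fitted BCV), 20% of genes changed 1.2-fold, 70% of those changed 1.5-fold and 94% of those changed 2-fold were recovered. In each simulation only a small part of the genes was changed, all above a floor on expected counts. Every gene had the same BCV. Far more genes were called in the data, so the shares recovered need not hold there, least of all for scarce genes.

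Lengths, overlaps and start sites are from GENCODE M21 (GRCm38, or mm10), which gave 56 of the 57 genes the coordinates in the table; coordinates are 1-based. Promoter peaks overlap the 1 kb on either side of a start site by at least 1 base. The 57 genes, their classes and all other lists were chosen with earlier results of these data known. Values per library are given for genes called with a log2 fold change of at least 0.5 in size, for the most abundant gene per length in each class and for untested genes, and up to 4 called genes per class and per list with the smallest p are named. Spp1, Matn2, Mfap5, Mfge8, Eln, Tnc, Tnxb and Sparcl1 were chosen after their values were seen.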

Additional observations from a re-analysis of the deposited data

How the results depend on the processing

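With 2 libraries per genotype and a BCV of 0.0311, the calls depend on the spread assumed. Of the 57 genes, 27 were lower and 4 higher; an assumed BCV of 0.1 left 15 lower and 2 higher, and 0.2 left 5 lower (Thbs2, Mgp, Mfap4, Lum and Prelp) and 0 higher. On counts simulated with a BCV of 0.2, the quasi-likelihood test, which estimates the spread itself, recovered 28% of 2-fold changes (12016 genes). The fit with an assumed BCV was not run on simulated counts. Over all genes, 4352 calls became 2058 with DESeq2, 1780 at a BCV of 0.1 and 398 at 0.2. DESeq2 kept 28 of the 31 calls among the 57 genes. Related genes called fell to 9 at a BCV of 0.2, against 54. The median log2 fold change of the tested genes was -0.22 with library size only, against -0.24, and between -0.27 and -0.21 when each replicate was left out, the extremes being without WT replicate 2 and without WT replicate 1; leaving out each replicate gave 26 lower genes, 4 to 5 higher genes and 3392 to 3674 calls over all genes. Ecm1, never called, changed sign with library size only (0.0090), and it lay between -0.030 and 0.0022 when each replicate was left out, the highest without KO replicate 2. Same-numbered libraries had a deviation correlation of 0.12 over only 2 pairs, too few to tell whether the numbers pair the libraries; with the replicate block 27 genes were lower, 4 higher and 4408 called over all genes. Genes near 1 CPM, such as Fmod, Abi3bp and Smoc1, rest on few counts, and the ATAC-seq comparison has no replicate. Non-overlapping genotypes stayed at 39 genes under both other scalings, and a promoter peak in both lists was found for 44 to 54 of the 57 genes under the other windows and thresholds.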
